A study of Homo sapiens with 4 samples.

Results

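Chromatin immunoprecipitation with sequencing (ChIP-seq) gave 2714 short SPIB peaks that lay well inside genes of modest length and were called in suspended cells without an overlapping peak in attached cells. They made up 30.1% of the 9024 peaks of the suspended list. Each lay on chromosomes 1 to 22, X or Y, was shorter than 750 bp and overlapped no attached peak by even 1 bp. Its summit was more than 1 kb from either end of every annotated gene, inside genes that all spanned less than 200 kb. Of the other suspended peaks, 2848 lay within 1 kb of a gene end, 1780 between genes and 989 inside a gene of 200 kb or more. A further 442 were 750 bp or wider, 208 were also called in attached cells and 43 lay outside these chromosomes. Peak length, position and absence from the attached list were what the 2714 members were selected on, so none of these is a finding about them.

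H1703, an established line of human lung squamous carcinoma, was made to overexpress SPIB and immunoprecipitated with the anti-FLAG M2 antibody. The groups were suspended cells and attached cells, each with 1 ChIP library and 1 input library of sonicated DNA, and both groups carried the overexpressed factor. The treatment text names 24 h in suspension for all 4 libraries, so the condition label was used to tell the groups apart. The ChIP libraries held 20766909 filtered tags (suspended) and 21108364 filtered tags (attached), and the inputs held 21437074 (suspended) and 15878452 (attached). With 1 library a group nothing here has a replicate and no p-value is given. Intervals are exact 95% Poisson intervals for counts and densities and exact Clopper-Pearson intervals for shares, and both cover counting error only. The attached list gives no tag count where it has no peak, so no difference in tags between the conditions can be given for any member.

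SPIB is a transcription factor of the ETS family, best known for its part in the development of B cells and of plasmacytoid dendritic cells. ETS factors bind purine-rich DNA around a GGAA core, and the bases on either side of the core set much of the preference among family members. Sites inside a gene can belong to an enhancer, to a promoter of a shorter transcript that starts within the gene, or to neither.

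The sequences below are shown because 196 members lay within 1 kb of an annotated transcript start inside a gene, a place that the choice of members did not use. The first 5 are the starts under the members of highest fold among those with a summit within 50 bases of such a start. They are CD33 at chr19:51224930-51225109 (plus strand), CMKLR1 at chr12:108320613-108320792 (minus strand), ZNF790 at chr19:36838358-36838537 (minus strand), PTBP3 at chr9:112332997-112333176 (minus strand), AP4E1 at chr15:50908533-50908712 (plus strand). BTK, the Bruton tyrosine kinase of B-cell receptor signalling, is added at chrX:101386162-101386341 (minus strand) because it belongs to the B-cell gene list. Each runs 5′ to 3′ on the strand of its gene from 150 bases before the start to 30 bases from it, read from the RefSeq promoter table for GRCh38.p14. Capitals mark each GGAA core, written TTCC where the core is on the other strand.
CD33: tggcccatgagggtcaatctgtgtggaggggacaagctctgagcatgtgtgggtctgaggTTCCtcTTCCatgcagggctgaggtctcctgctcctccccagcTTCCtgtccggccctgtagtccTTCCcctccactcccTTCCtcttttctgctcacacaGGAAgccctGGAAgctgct
CMKLR1: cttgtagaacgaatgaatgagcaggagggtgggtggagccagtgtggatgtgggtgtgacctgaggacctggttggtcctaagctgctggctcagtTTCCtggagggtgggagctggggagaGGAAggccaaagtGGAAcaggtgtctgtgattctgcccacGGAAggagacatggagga
ZNF790: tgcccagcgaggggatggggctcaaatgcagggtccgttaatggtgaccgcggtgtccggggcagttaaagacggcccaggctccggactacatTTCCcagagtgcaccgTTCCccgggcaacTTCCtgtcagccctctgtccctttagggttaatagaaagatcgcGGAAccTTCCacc
PTBP3: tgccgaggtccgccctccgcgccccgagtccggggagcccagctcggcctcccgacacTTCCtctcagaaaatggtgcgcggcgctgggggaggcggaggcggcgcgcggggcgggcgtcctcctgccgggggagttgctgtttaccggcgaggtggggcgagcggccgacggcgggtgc
AP4E1: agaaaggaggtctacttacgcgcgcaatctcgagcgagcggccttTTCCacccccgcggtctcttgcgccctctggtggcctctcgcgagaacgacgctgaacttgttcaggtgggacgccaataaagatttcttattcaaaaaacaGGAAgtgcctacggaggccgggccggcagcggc
BTK: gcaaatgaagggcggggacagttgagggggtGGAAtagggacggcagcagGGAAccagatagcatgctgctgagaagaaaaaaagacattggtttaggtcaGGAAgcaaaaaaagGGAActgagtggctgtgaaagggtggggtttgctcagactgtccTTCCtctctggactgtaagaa

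CD33, a sialic acid receptor of myeloid cells, had 7 GGAA cores in its printed stretch. Its member, at chr19:51224988-51225159, held 10 ChIP tags (4.80 to 18.4) at 14.34-fold over the local background, with the summit 12 bases past the start. CMKLR1, the chemerin receptor, had 4 cores, of which 1 lay in CGGAAG, and its member held 9 tags at 13.29-fold. BTK had 5 cores and a member of 11 tags (5.49 to 19.7) at 9.83-fold, with the summit 33 bases past the start. These 3 genes are best known from immune cells, and their members rested on 9 to 11 tags each.

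The other printed starts belong to genes that many cell types use, and their members held more tags. ZNF790, a zinc finger protein gene, had 5 cores, of which 1 lay in AGGAAGT, under a member of 29 tags (19.4 to 41.6) at 12.29-fold. AP4E1, a subunit of the AP-4 vesicle adaptor, had 2 cores, of which 1 lay in AGGAAGT, under a member of 32 tags (21.9 to 45.2) at 10.92-fold. PTBP3, an RNA-binding splicing regulator, had a single core, also in AGGAAGT, under a member of 18 tags (10.7 to 28.4) at 11.34-fold. A match of letters is a description of the window, since no base under the peaks was tested for binding.

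Annotated starts inside genes stood out most in the position of the members. The promoter table lists 3966 such starts in 2892 genes of this size, none of them on chromosome 8. Of the 2613 members on the other chromosomes, 196 (7.50%, 6.52 to 8.58) had a summit within 1 kb of one of them, in 0.784% of the DNA that met the position rule. That was 30.2 members per Mb (26.1 to 34.7) near these starts, against 2.94 per Mb (2.82 to 3.06) further away. The density fell off with distance, with 49.7 per Mb (40.0 to 61.0) within 250 bp, 22.5 per Mb from there to 1 kb, 4.85 per Mb from 1 to 5 kb and 2.89 per Mb beyond 5 kb. Most members nevertheless lay far from any start that the table lists, 2318 of them by more than 5 kb. The table covers 27303 of the 59679 genes, and hosts such as IGF2BP1 and GRIN1 have no start in it. Members in such genes were counted by their distance to listed starts of other genes.

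The members near inner starts also had other peak values than the rest. Their median was 20.5 tags, against 12 tags for members further away, and their median length was 322 bp, against 215 bp. Their median fold was 8.19, against 9.83 further away. The median of 20.5 tags near inner starts is close to the 20 tags of suspended-only peaks at gene ends. These are the authors' values from the list that chose the members, so they describe the peaks and test nothing.

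The start windows under members were rich in G and C. Over the 300 bases of the table, the 116 windows inside genes that a member overlapped had a median GC content of 67.7% and a median of 27 CpG, against 55.3% and 7 CpG in the 3847 windows inside genes without a member, and 58.7% and 14 CpG in all 34943 windows. In all, 101 members overlapped these windows, and 59 had their summit in 1. The share with a GGAA core on either strand was 95.7% under members, 94.9% without a member and 95.5% over all windows, so a core is found in nearly any window of this length. Both longer ETS forms, AGGAAGT and CGGAAG, contain the GGAA core and were searched on both strands.

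AGGAAGT was in 17 of the 116 windows under members (14.7%, 8.78 to 22.4), against 8.66% of the inner windows without a member and 8.23% of all windows. Its interval begins just above both of these shares. However, the intervals of both longer forms treat each window as separate. Some windows of a gene overlap under a single member, such as TNK2 windows that both held AGGAAGT, so these intervals are too narrow. CGGAAG was in 27 windows under members (23.3%, 15.9 to 32.0), against 12.3% of inner windows without a member and 19.4% of all windows. CGGAAG holds a CpG, and in windows of 60% GC or more its share was 22.2% (20 of 90) under members against 19.3% without, while in windows under 60% GC it was 26.9% (7 of 26) against 7.92%. In the same GC-rich windows AGGAAGT was in 14.4% (13 of 90) under members, against 5.91% (87 of 1473) without, and under 60% GC in 15.4% (4 of 26) against 10.4%. The other motifs differed less, with CAGCACC in 10.3% of windows under members against 8.03% of inner windows without, GGACAG in 21.6% against 22.8%, and TGANTCA, the AP-1 site, in 6.03% against 9.25%.

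**Figure D1:**
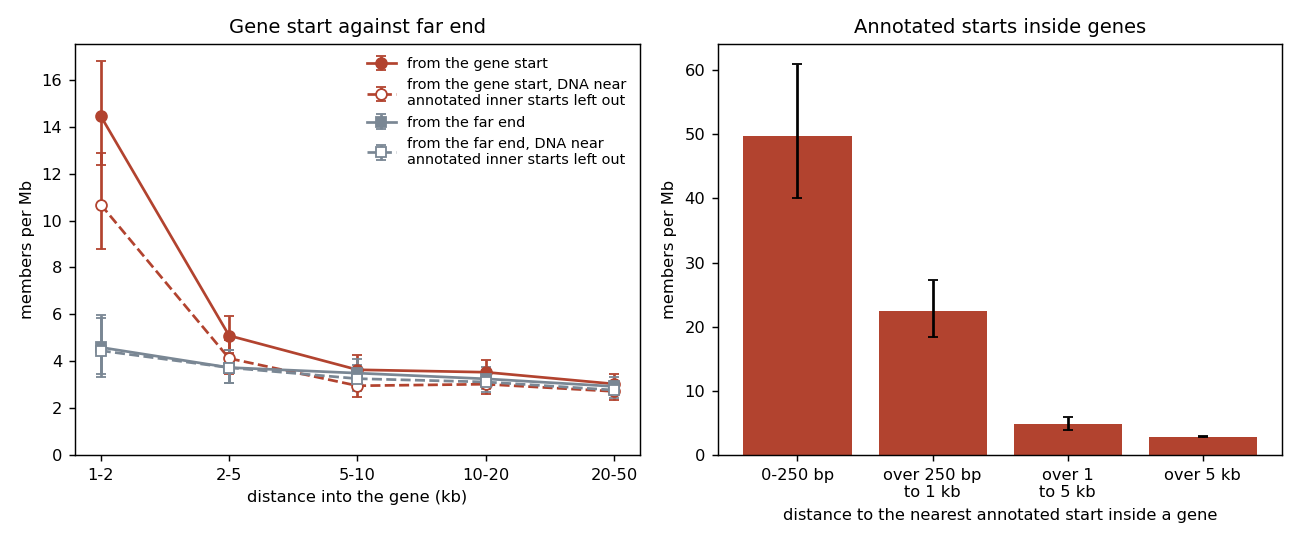
Left, members per Mb (vertical axis) against distance into the gene in kb, measured from the gene start (red circles) or from the far end (grey squares), with open symbols for the DNA that is left when 1 kb around annotated inner starts is taken out. Right, members per Mb by distance to the nearest annotated start inside a gene, highest within 250 bp (49.7 per Mb). Bars are 95% Poisson intervals.

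The gene start held more members than the far end. In 14683 protein-coding genes with a known strand, 169 members lay 1 to 2 kb from the start, or 14.4 per Mb (12.3 to 16.8), against 55 at the same distance from the far end, or 4.597 per Mb (3.46 to 5.98). From 2 to 5 kb the densities were 5.10 per Mb on the start side and 3.74 per Mb on the far side, and from 20 to 50 kb they were 3.04 and 2.93 per Mb. The lean to the start was thus mainly in the first 2 kb. Without the DNA within 1 kb of any start that the promoter table lists, the same first bin had 10.7 per Mb (8.78 to 12.9) on the start side. On the far side it had 4.46 per Mb (3.34 to 5.83). Over all distances that setting left 3.42 per Mb (3.18 to 3.67) on the start side and 3.18 per Mb (2.95 to 3.42) on the far side, whose intervals overlap. It was chosen after the data were seen.

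Genes under 200 kb held suspended-only peaks more densely than long genes or the DNA between genes. The members numbered 3.13 per Mb (3.01 to 3.25) over the 867 Mb that met the position rule. Long genes held 1.44 per Mb (1.35 to 1.54), the DNA between genes 1.32 per Mb (1.26 to 1.39, assembly gaps included), and the DNA within 1 kb of gene ends 15.1 per Mb (14.6 to 15.7). Members in protein-coding hosts stood at 3.66 per Mb (3.51 to 3.81), against 1.86 per Mb (1.69 to 2.03) in hosts of other types. In the same 867 Mb the suspended list placed 2752 peaks shorter than 750 bp, whether or not they overlapped an attached peak, or 3.17 per Mb, and the attached list 112 of that length, or 0.129 per Mb (0.106 to 0.155). These ratios carry the whole difference in number between the lists, 9024 suspended against 462 attached.

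**Figure D2:**
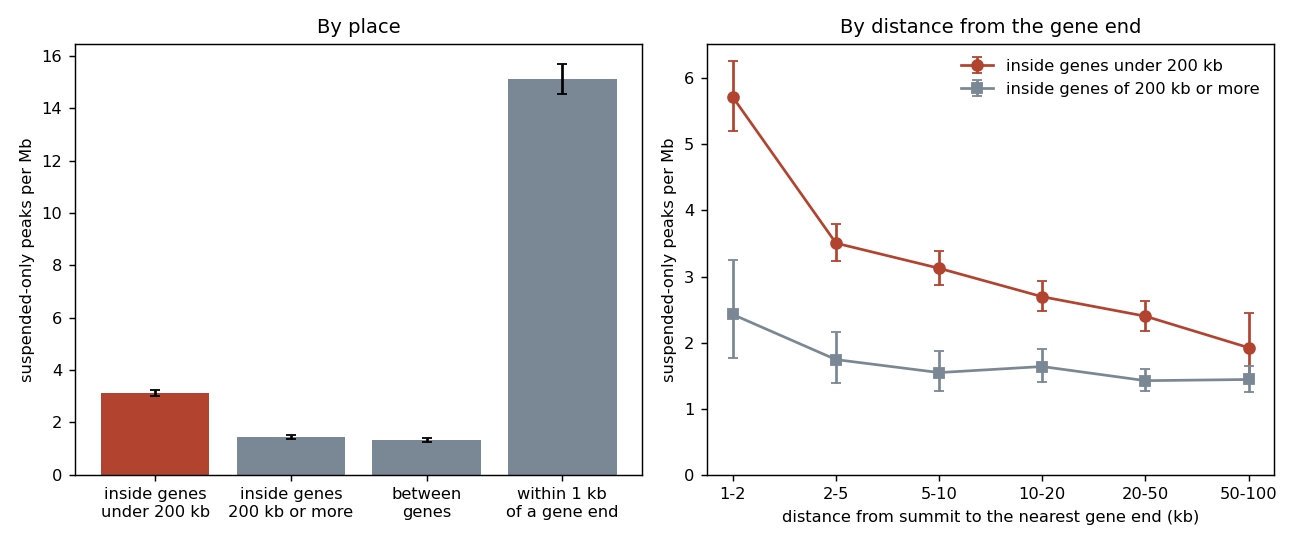
Left, suspended-only peaks shorter than 750 bp per Mb of DNA inside genes under 200 kb (the members, red), inside longer genes, between genes and within 1 kb of a gene end. Right, the same density by distance from the summit to the nearest gene end in kb, for members (red circles) and for peaks inside longer genes (grey squares), where members stand higher in each bin. Bars are 95% Poisson intervals.

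Members thinned out with distance from the nearest gene end. There were 447 at 1 to 2 kb, or 5.71 per Mb, and 588 at 5 to 10 kb, or 3.12 per Mb, but 67 at 50 to 100 kb, or 1.92 per Mb (1.49 to 2.44). Inside long genes the same bins had 2.42, 1.55 and 1.44 per Mb (1.26 to 1.64 for the last). The members' density was above that of long genes at each distance, but at 50 to 100 kb the intervals of the 2 classes overlapped. Density also fell with the span of the smallest host, with 5.34 per Mb in genes under 10 kb, 3.52 per Mb from 25 to 50 kb and 2.51 per Mb (2.33 to 2.69) from 100 to 200 kb. DNA inside a gene under 10 kb always lies within 5 kb of a gene end, and span was not separated from distance.

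Most members were small peaks near the lower limits of the list. Their median was 12 tags, with quartiles of 9 and 19 and a range of 8 to 75. The authors' fold over local background had a median of 9.66 and a range of 3.58 to 36.2. Their false discovery rate (FDR), found by calling peaks with ChIP and input exchanged, had a median of 4.10% and reached 6.42%, and 1967 members (72.5%) were at 5% or less. The authors' score, which starts at 50, reached 100 or more in 76 members (2.80%). Suspended-only peaks at gene ends had a median of 20 tags at 7.68-fold, those inside long genes 10 tags at 10.9-fold, and peaks also called in attached cells 34 tags at 11.7-fold.

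Fold and tags ran opposite ways among the members. The 696 members of 8 or 9 tags had a median fold of 12.3 and a median length of 169 bp, and the 224 members of 30 tags or more had 6.095 and 550.5 bp. Some folds recurred, with 8.19 in 84 members (8 to 36 tags), 10.92 in 72 (8 to 47 tags) and 14.9 in 62 (8 to 11 tags). A high fold by itself was thus no sign of many tags, and both are given for each named member.

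Around the limits of the rule, the tags of peaks inside and outside overlapped. HAUS7 (742 bp, 42 tags) and MUC3A (739 bp, 56 tags) were just short enough, and peaks in SEMA3F (754 bp, 51 tags) and NINJ2 (753 bp, 44 tags) just too long. NAB2 (18 tags) and ARHGDIA (29 tags) had summits 1001 bp from a gene end, and peaks near KDM5B (26 tags, 998 bp) and PCDH8P1 (8 tags, 1000 bp) fell outside. The hosts ASAP2 (198867 bp, 16 tags) and TBC1D4 (198667 bp, 8 tags) were just under the span limit, and NR2F2-AS1 (200002 bp, 11 tags) and CCN2-AS1 (200374 bp, 10 tags) just over it.

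The member of highest fold lay in CEACAM20, a gene of the carcinoembryonic antigen family of cell-surface proteins, at chr19:44512888-44513273. It held 38 tags (26.9 to 52.2) at 36.18-fold with an FDR of 0%. ST8SIA3, a sialyltransferase known from brain, came next with 54 tags (40.6 to 70.5) at 25.31-fold, 1517 bp from the gene start. ADGRA1, an adhesion-type receptor, had 24.97-fold on 13 tags, and POU2AF2, a coactivator of POU-domain factors in tuft cells, had 24.46-fold on 14 tags.

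Among the other members of high fold, RAP1GAP, which switches off the small GTPase RAP1, had 27 tags at 20.75-fold. HMCN2, an extracellular matrix protein of the hemicentin family, had 26 tags at 21.61-fold and a second member of 11 tags at 8.19-fold. SLC12A5, the potassium-chloride cotransporter of neurons, had 3 members, of 30 tags at 20.48-fold, 24 tags at 13.65-fold and 14 tags at 8.82-fold. RDX, which links actin to the cell membrane, had 10 tags at 19.87-fold, the same fold as CXXC4 (11 tags), LINC02762 (11 tags) and PTPN20 (10 tags). ZNF71-SMIM17 and the pseudogene DPY19L2P3 both had 14 tags at 22.36-fold, LOC105377697 had 10 tags at 21.07-fold and LOC124904896 had 25 tags at 20.12-fold. DPY19L2P3 and PTPN20 have near-identical copies elsewhere in the genome, and the placement of tags between the copies is uncertain.

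The members with most tags were wide peaks of low fold, except in TRIM41 and ST8SIA3. The pseudogene GUSBP1, also one of several copies, had 75 tags (59.0 to 94.0) at 4.83-fold. TRIM41, a ubiquitin ligase gene, had 58 tags (44.0 to 74.98) at 11.57-fold, 1120 bp from its start. NINJ2 and LETM2 had 58 tags each at 5.30-fold and 4.40-fold, MUC3A 56 tags at 4.29-fold, RIMKLB 53 tags at 7.93-fold, TMEM242 52 tags at 6.39-fold and CEACAM16-AS1 52 tags at 7.84-fold. FGFR1, a receptor for fibroblast growth factors, had a member of 56 tags (42.3 to 72.7) at 4.39-fold. FGFR1 also held a suspended-only peak of 3267 bp with 330 tags (295 to 368) at 3.23-fold, too wide to be a member.

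SPIB itself held a member, at chr19:50422716-50423109, with 37 tags (26.1 to 51.0) at 7.84-fold and an FDR of 1.68%. It lay 3977 bp from the nearer gene end, and DNA of the introduced copy cannot be told apart from the native gene in these lists. SNAP47, a SNARE-family protein, had suspended peaks of 14 and 17 tags inside it, but their summits lay 358 and 902 bp from an end of JMJD4 and so were not members.

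Members lay mostly in protein-coding genes. The host was protein-coding for 2241 members (82.6%), a long non-coding RNA gene for 401 (14.8%), a transcribed pseudogene for 55 and a pseudogene for 15. Protein-coding genes also covered 613 of the 867 Mb that met the position rule, and where genes overlap the host is the protein-coding one. Of 16967 protein-coding genes under 200 kb with DNA that met the position rule, 1897 held a member, and this share of 11.2% (10.7 to 11.7) is the background for each gene group. It depended on gene length, with 2.83% of genes under 10 kb, 11.3% of those of 25 to 50 kb and 27.3% of those of 100 to 200 kb. Genes holding a member had a median span of 57.8 kb, against 21.9 kb for genes holding none. Exactly 1 member was found in 1590 of the 1897 genes, and 2 in 249, 3 in 43, 4 in 13 and 5 in 2.

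Genes with a member inside more often had a suspended peak at their own end. That held for 384 of 1897 (20.2%, 18.5 to 22.1), against 2131 of 15070 genes without a member (14.1%, 13.6 to 14.7). The share was higher at each of 5 gene lengths, from 20.2% against 12.7% in genes under 10 kb to 17.6% against 11.0% in genes of 100 to 200 kb. However, the intervals overlapped in genes under 10 kb (13.4 to 28.5 against 11.7 to 13.8) and from 25 to 50 kb (16.9 to 25.1 against 15.1 to 17.7). An attached peak anywhere in the gene was found in 38 genes holding a member (2.003%, 1.42 to 2.74) and in 129 genes holding none (0.856%, 0.715 to 1.02). The genes holding a member are longer, and this second comparison was not split by length.

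The genes with most members were EGFR and NFIC, with 5 each. EGFR, the epidermal growth factor receptor, spans 192612 bp and held members of 20, 25, 23, 15 and 20 tags in order along the gene, at 5.29 to 11.26-fold and 103 tags in all. In the same order their FDR was 5.95%, 1.77%, 5.14%, 3.32% and 6.31%, so most were above 5%. NFIC, a transcription factor of the nuclear factor I family, held members of 14 to 21 tags at 6.95 to 9.36-fold and 83 tags in all, with an FDR of 2.26 to 5%. These members were spread over each gene, between 36.2 and 148 kb from the start of EGFR and between 1.59 and 70.1 kb from the start of NFIC. None of the 10 reached 30 tags.

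Other genes held 4 members each, and their spacing differed. MYOF, a membrane repair protein, held members of 24, 20, 13 and 40 tags that were 18.0 to 126 kb from its start, and TNRC18 held members of 21, 37, 13 and 29 tags. TSNARE1 had 4 members with 100 tags in all. YWHAZ, a 14-3-3 adaptor protein, had 4 neighbouring members of 31, 20, 35 and 39 tags at chr8:100950674-100952803, the nearest with its summit 1001 bp from the gene end, so these 4 lie side by side at a single place. TBL1XR1, a corepressor subunit, had 3 abutting members of 18, 30 and 21 tags 4.45 to 5.48 kb from its start beside annotated inner starts, and a lone member of 11 tags deep in the gene. LMNA, which encodes lamins of the nuclear envelope, had members of 12 to 28 tags, of which 1 (15 tags) overlapped the window of an inner start.

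**Figure D3:**
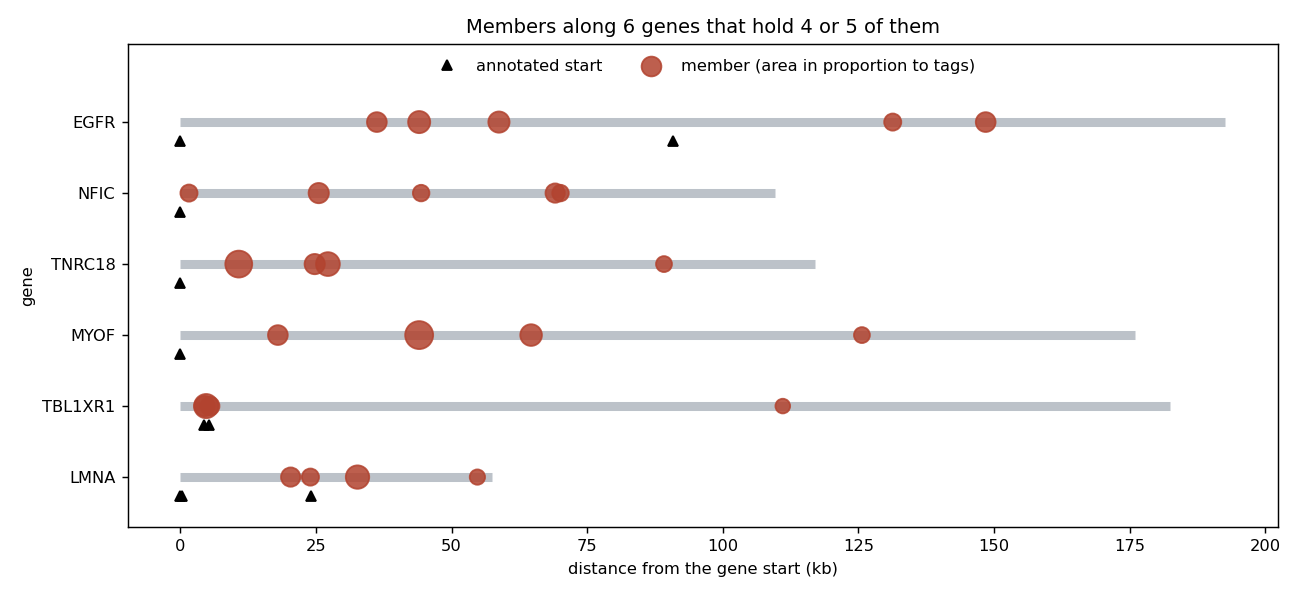
Members along 6 genes that held 4 or 5 of them (rows), by distance from the gene start in kb. Red circles are members, with an area in proportion to their ChIP tags (11 to 40 in these genes), grey bars are gene spans and black triangles are annotated starts. Members of EGFR, NFIC, TNRC18 and MYOF are spread out, and 3 members of TBL1XR1 sit together beside annotated starts.

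Gene groups were read against the background share of 11.2%. Of 15 lists, 13 had a share above it, but the interval lay wholly above it only for synapse and neurosecretion genes, and below it for none. The lists differ in gene length from the 24.2 kb median of all tested genes, and the share of genes holding a member grew with length over all genes. The density per Mb is given beside each share, and all tested genes together had 3.63 members per Mb. Several members named below were above an FDR of 5%, among them those of VMP1 (6.42% and 5.06%), PIK3R4 (5.65%), MLST8 (6.29%), DSC3 (5.71%) and TWIST1 (5.94%). Of all members, 72.5% were at 5% or less.

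Genes of synapses and neurosecretion held members in 9 of 33 (27.3%, 13.3 to 45.5), at 6.48 per Mb (3.11 to 11.9) and a median span of 39.5 kb. While the interval of the share lies above 11.2%, that of the density covers the 3.63 per Mb of all tested genes. UNC13A, which primes synaptic vesicles, had 16 tags at 12.37-fold, and CPLX1, a complexin that binds the SNARE complex, 11 tags at 11.99-fold. Its relative CPLX2 had 32 tags at 9.68-fold, and the scaffold SHANK3 had 12 tags at 11.20-fold. Of the 33 genes 8 held an attached peak, and SHANK1, CPLX2 and SYT2 each held both a member and an attached peak. Over all tested genes, an attached peak was in 2.003% of those holding a member and 0.856% of those holding none. Ion channel genes had members in 5 of 31 (16.1%), at 3.74 per Mb. GRIN1, a subunit of the NMDA glutamate receptor, had 3 members of 10 or 11 tags at 7.56 to 12.47-fold, and GLRA1, a glycine receptor subunit, had 8 tags at 16.39-fold.

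The ETS family had the highest density among lists with 5 or more genes called, 8.73 per Mb (3.99 to 16.6), with members in 6 of 26 genes (23.1%, 8.97 to 43.6). That interval of density lies above 3.63 per Mb, while the interval of the share covers 11.2%. ELF2 had members of 32 tags at 11.26-fold and 8 tags at 14.90-fold. ERF, an ETS repressor, had members of 35 tags at 8.19-fold and 21 tags at 6.14-fold, 1190 and 1892 bp from a gene end. The 2 ERF members lie close together, at chr19:42253771-42254389 and chr19:42253016-42253408. The density interval counts each member as separate, so it may be too narrow. FLI1 had members of 13 and 11 tags at 11.34-fold and 10.80-fold. SPIB is 1 of the 6 genes of the list, and its member is 1 of the 9 behind the density. DNA of the introduced SPIB copy cannot be told apart from the native gene. No interval was calculated without SPIB, so whether the rest of the family lies above 3.63 per Mb was not tested.

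B-cell and plasmacytoid dendritic cell genes had members in 6 of 29 (20.7%, 7.99 to 39.7), at 7.01 per Mb (3.03 to 13.8). LYN, a kinase of B-cell receptor signalling, had members of 9 and 8 tags at 12.74-fold and 11.07-fold, and BTK is printed above. IKZF3, a lymphoid zinc finger factor, had 13 tags at 11.62-fold, and PRDM1, which drives plasma cell formation, had 8 tags at 11.03-fold. Apart from POU2F2 (32 tags over 2 members) and CD79B (16 tags), the members of these genes held 8 to 13 tags each. The members of LYN (5.63% and 5.30%) and PRDM1 (5.83%) were above an FDR of 5%, and those of IKZF3 (4.34%) and BTK (5%) were not.

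The autophagy lists, which bear on the question in the title of the series, lay on both sides of the background. Autophagy receptors had members in 4 of 17 (23.5%, 6.81 to 49.9), autophagosome formation genes in 5 of 34 (14.7%, 4.95 to 31.1), lysosome genes in 4 of 34 (11.8%, 3.30 to 27.5) and genes of autophagosome and lysosome fusion in 2 of 24 (8.33%). Each of these shares has an interval that covers 11.2%. Their densities were 6.06 per Mb (1.65 to 15.5) for receptors, 3.81 for formation, 3.10 for lysosome genes and 3.39 for fusion, and each interval covers 3.63 per Mb. SQSTM1, the cargo receptor p62, had 32 tags at 6.07-fold, NBR1 had 18 tags at 7.80-fold, RETREG1, a receptor for the endoplasmic reticulum, had 27 tags at 6.30-fold, and RTN3, another such receptor, had 10 tags at 9.10-fold.

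Members in the other autophagy genes held 8 to 29 tags each, around the median of 12 tags of all members. RUBCN, a negative regulator of autophagosome maturation, had 3 members of 12, 10 and 13 tags at 8.82 to 10.61-fold, and TECPR1, a tether in fusion, had 24 tags at 6.90-fold. PIK3R4, a subunit of the lipid kinase complex that starts the autophagosome, had 8 tags at 14.34-fold, and ULK2, an initiating kinase, had 29 tags at 6.83-fold. VMP1 had 2 members of 11 tags, at 10.43-fold and 7.65-fold. The proton pump genes ATP6V1A (9 tags at 14.90-fold), ATP6V1B1 (12 tags at 11.47-fold), ATP6V1E1 (10 tags at 10.43-fold) and ATP6V0A1 (26 tags at 6.1-fold) made up all 4 lysosome genes with a member.

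MTOR and AMPK signalling genes had members in 7 of 33 (21.2%, 8.98 to 38.9), at 5.54 per Mb (2.39 to 10.9). PRKAA1, the catalytic subunit of AMPK, had members of 20 tags at 6.55-fold and 19 tags at 7.08-fold. AKT2, a kinase upstream of MTOR, had 14 tags at 11.02-fold, and MLST8, a subunit of both MTOR complexes, had 13 tags at 8.74-fold. Apoptosis regulators had members in 5 of 40 (12.5%, 4.19 to 26.8), at 5.18 per Mb (1.90 to 11.3), with CASP8, an initiator caspase, at 12 tags and 11.47-fold and BID, which carries its signal to mitochondria, at 8 tags and 15.14-fold.

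Adhesion genes, whose proteins tie cells to the matrix, had members in 8 of 34 (23.5%, 10.7 to 41.2), at 3.76 per Mb (1.72 to 7.14) and a median span of 60.6 kb. Their density was thus close to the 3.63 per Mb of all tested genes. ITGB4 and ITGA6, the subunits of the hemidesmosome integrin, had 11 tags each at 9.78-fold and 8.19-fold, PXN, an adaptor of focal adhesions, had 20 tags at 7.71-fold, and LAMA5, a laminin chain, had 28 tags over 2 members. Genes of cell-cell junctions and epithelial-mesenchymal transition had members in 7 of 31 (22.6%, 9.59 to 41.1), at 4.02 per Mb. DSC3, a desmosomal cadherin, had 8 tags at 14.04-fold, PKP1, a desmosomal plaque protein, had 15 tags at 10.74-fold and TWIST1 had 8 tags at 11.22-fold. DSC3 and PKP1 were also the 2 of 15 squamous genes (13.3%) with a member, at 8.36 per Mb (1.01 to 30.2).

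Histone-modifying enzymes had members in 6 of 47 (12.8%, 4.83 to 25.7), at 2.91 per Mb, with KDM4B at 19 tags over 2 members and EP300 at 12 tags and 11.65-fold. Cytoplasmic ribosomal protein genes, which are short, had members in 2 of 42 (4.76%, 0.582 to 16.2), with RPL37 at 40 tags and 5.63-fold and RPS24 at 20 tags and 8.82-fold. Their share was below the background and their density of 12.3 per Mb (1.49 to 44.5) above it, but both rest on 2 members. The shares and densities of these 2 lists have intervals that cover those of all tested genes.

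**Figure D4:**
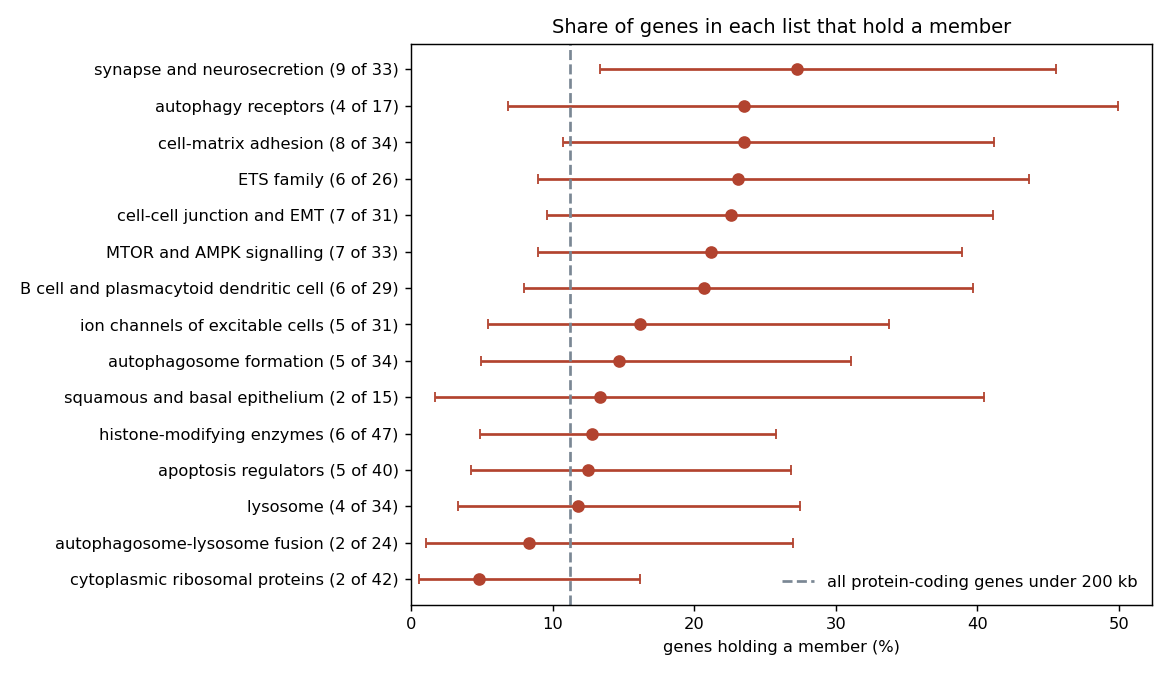
Share of genes that hold a member (horizontal axis, percent) in each of 15 gene lists (rows, with genes holding a member of genes tested). Bars are 95% Clopper-Pearson intervals and the dashed line is the 11.2% of all protein-coding genes under 200 kb. The interval of synapse and neurosecretion genes alone lies above the line. Shares are not adjusted for gene length.

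Chromosomes differed in how densely they held members. Chromosomes 19 and 17 stood highest, with 6.40 and 6.19 members per Mb, and chromosomes X and 21 were among the lowest, with 1.17 and 0.955 per Mb. Chromosome Y had none, which allows up to 0.910 per Mb. The other suspended-only peaks were also densest on chromosomes 19 and 17, at 10.04 and 8.44 per Mb of the remaining DNA. In windows of 10 Mb the median was 2.38 members per Mb, and the densest were the first 10 Mb of chromosome 5, with 40 members or 13.5 per Mb (9.64 to 18.4), and of chromosome 12, with 46 or 10.7 per Mb. The 10 densest of 299 windows held 303 members (11.2%) in 3.60% of the DNA, and 23 windows held none. The number of DNA copies in this line was not measured here, and copy number and binding cannot be told apart in peak counts.

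**Figure D5:**
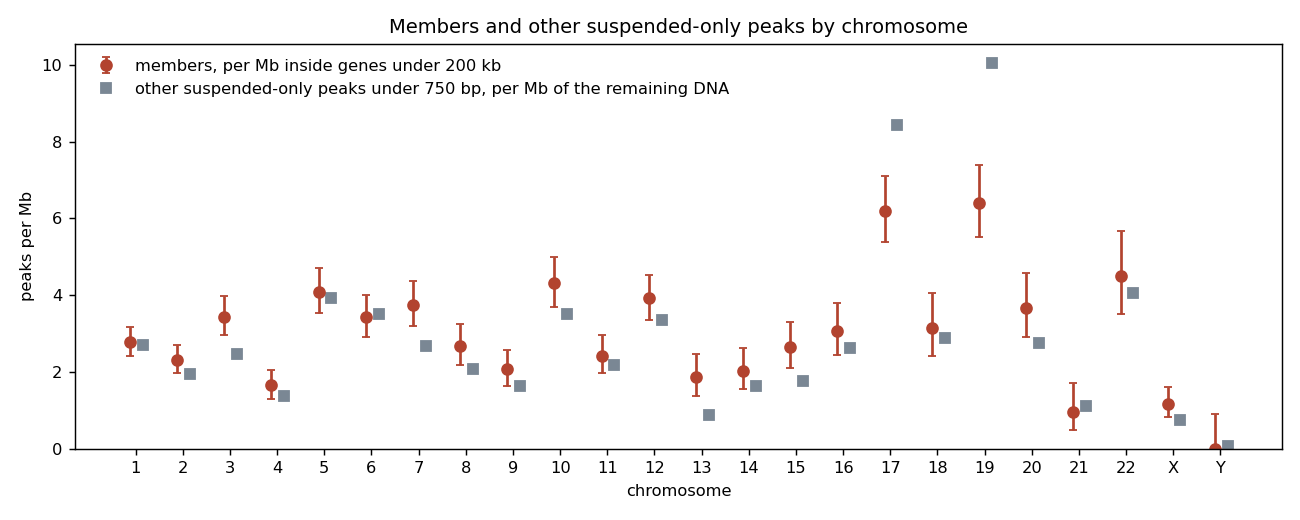
Members per Mb of DNA inside genes under 200 kb (red circles, with 95% Poisson intervals) and other suspended-only peaks under 750 bp per Mb of the remaining DNA (grey squares), by chromosome. Both are highest on chromosomes 17 and 19.

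Members lay closer to other suspended peaks than peaks inside long genes did, and less close than peaks at gene ends. Another suspended peak was within 10 kb of 586 members (21.6%, 20.1 to 23.2), against 7.58% (6.01 to 9.41) of peaks inside long genes and 14.04% (12.5 to 15.8) of peaks between genes, but 28.8% (27.2 to 30.5) of peaks at gene ends. The median distance to the next suspended peak was 40.6 kb for members, 121 kb for peaks inside long genes and 36.0 kb for peaks at gene ends. Attached peaks were far rarer near members, but the attached list is also far shorter, with 462 peaks against 9024. An attached peak was within 10 kb of 28 members (1.03%, 0.687 to 1.49). The share was 0.303% (0.0626 to 0.884) of peaks inside long genes, 0.730% (0.389 to 1.25) of peaks between genes and 1.16% (0.799 to 1.62) of peaks at gene ends. Within 1 kb of an attached peak there were 3 members. Those 3 lay in PDE4C (350 bp away, 35 tags at 19.18-fold), RABGEF1 (627 bp, 40 tags at 6.22-fold) and CPLX2 (675 bp, 32 tags at 9.68-fold). They were named after their values were seen.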

How the data were processed

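Suspended and attached SPIB ChIP peaks came from 1 ChIP and 1 input library per condition. Per the file headers, the authors called peaks with MACS 1.4.2 for each ChIP against its own input, at a p cutoff of 1e-05, with 1 tag kept per position. Per the submitters' processing notes the build is hg38; the sources used here name no aligner. The deposited lists give tags per peak as a count, fold enrichment as a ratio to local background, a score (minus 10 times log10 of the p-value, read from its place in the list), and the FDR as a percent. All of these are the authors' values.

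Members were found with pandas 2.3.3, SciPy 1.17.1 and numpy 2.4.6 under Python 3.11.15, and plotted with matplotlib 3.10.9. Genes came from the RefSeq table for GRCh38.p14 (59679 genes), with strand for 27303 from the RefSeq promoter table. Density is peaks per Mb of the DNA that meets the same position rule, between the first and last gene of each chromosome. The code was tested on simulated peaks. The host is the smallest protein-coding gene over the summit, or else the smallest other gene. Exon, intron and UTR classes and sequences at most peaks were not analysed here, since no genome was given.

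Named genes were the hosts of the 15 highest folds and the 10 highest tag counts, the 6 genes with most members, up to 4 genes a list, SPIB, SNAP47 and peaks at the limits of the rule; a few such items are not reported here. Members, lists and rule were chosen with earlier results of these data known. CGGAAG, the gene starts inside genes, the printed stretches, LMNA, TBL1XR1 and list genes beyond 4 were chosen after their values were seen. Alternatives were stricter FDR or score, other distance, length and span limits, protein-coding genes only, and 2 added later.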

Additional observations from a re-analysis of the deposited data

How the results depend on the processing

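The number of members, 2714, moved by over 1.5 times at 2 of 11 alternatives, to 1152 with scores at or above the median of the suspended list and to 1651 over 5 kb from gene ends. It was 1967 with an FDR of 5% or less and 2411 without the 10 densest windows. The density of 3.13 per Mb became 2.27 at that FDR, 1.33 in the upper scores, 2.87 over 2 kb and 2.69 over 5 kb from gene ends, 3.81 with protein-coding genes only, 2.94 under 500 bp, 3.52 in genes under 100 kb, 2.88 without the densest windows and 2.89 without DNA near inner starts. The share of genes holding a member, 11.2%, became 8.45% at that FDR, 5.19% in the upper scores, 10.3% over 2 kb, 9.80% over 5 kb, 11.9% with protein-coding genes only, 10.6% under 500 bp, 9.20% in genes under 100 kb and 10.2% without DNA near inner starts. A stricter cutoff or narrower DNA keeps fewer peaks by construction. The last 2 settings were chosen after seeing the data. No paired analysis was possible because each condition has 1 ChIP library, and for the same reason no library could be left out. Counts of 8 to 20 tags in most members limit any single peak, and a missing attached peak does not show absence of binding.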

Other observations

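Gene families, taken from the root of the symbol and chosen after the data were seen, differed in how often they held a member. Of 84 families with 20 or more tested genes, 3 had an interval above the background share of 11.2%, of which 2 are described, 5 had one below it, and 10 held no member. Sorting nexins, which sort cargo on endosomes, held members in 14 of 29 genes (48.3%, 29.5 to 67.5), at 8.60 members per Mb (16 members). SNX27, which returns receptors from endosomes to the cell surface, had 40 tags over 2 members, and SNX8 had 25 tags at 13.79-fold. SNX15 had 12 tags at 14.73-fold, SNX11 12 tags at 13.71-fold and SNX4 16 tags over 2 members at up to 12.41-fold, while SNX12 had 28 tags at 5.70-fold. Most of the 14 genes thus held a single small member. The family was picked as the highest of the 84, so its share is a description with no test.

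Also above the background was UBE, a symbol root that includes ubiquitin-conjugating enzymes but is not limited to them. It had members in 11 of 41 genes (26.8%, 14.2 to 42.9), at 6.21 members per Mb. Olfactory receptor genes (OR) held members in 3 of 197 (1.52%, 0.315 to 4.39), keratin genes (KRT) in 1 of 55 (1.82%) and zinc finger genes (ZNF) in 41 of 498 (8.23%, 5.97 to 11.0). Their densities were 1.405 members per Mb for OR, 2.61 for KRT and 3.325 for ZNF. The FAM and LOC symbols, which name genes of no shared function, had 9 of 164 (5.49%) and 15 of 402 (3.73%), at 1.82 and 3.07 members per Mb. All tested genes together had 3.63 per Mb. The share grows with gene length, and the shares of families were not split by length.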
